A study of Mus musculus with 2 samples.

Results

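The proteasome genes described here were the 50 mouse genes whose symbol begins Psma, Psmb, Psmc, Psmd, Psme, Psmf or Psmg followed by a digit and that have at least 1 transcript typed protein_coding, out of 55536 annotated genes. Names that contain -ps, used for pseudogenes, were left out, and the 4 such genes held 0 to 3 expected counts a library. The rule used names and transcript types only, not expression, although the genes were chosen with earlier results of these data known. It includes 1 gene, Psmc3ip, that encodes a partner protein of meiotic recombination and no proteasome subunit.

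The tissue was adrenal gland from B6CASTF1/J females aged 2 months, hybrids of a C57BL/6J and a CAST parent, with no treatment named in the labels. Total RNA, 300 ng a library, was sequenced with ribosomal RNA reduced and ERCC spike-in RNA added. The labels give 2 biological replicates in 1 group, named animal 2 and animal 1 below after the replicate numbers. Both library descriptions carry the same animal number, while the biosample descriptions carry different ones under the same donor entry, so the separateness of the animals rests on the biosample descriptions and replicate numbers. With 1 library an animal and no second group, no p-value was computed, and the intervals given cover counting error only.

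The proteasome is the protease that degrades most ubiquitin-tagged proteins of the cytosol and nucleus. Its 20S core is a stack of alpha and beta rings whose proteolytic sites lie inside, and the 19S particle at the end of the core binds ubiquitin chains, unfolds the substrate with a ring of ATPases and removes the ubiquitin. Interferon signalling induces alternative catalytic subunits that replace the constitutive ones in newly built cores, which forms the immunoproteasome and alters the peptides offered to major histocompatibility complex class I molecules.

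Promoter stretches of 4 of the 6 catalytic subunits are shown because these subunits carry the contrasts described below. Promoter sequence is RefSeq's on GRCm38.p6, and 42 of the 50 genes matched an entry, with 45 windows. Each window was searched from 250 bases upstream to the start, on both strands, for TGACNNNGC (the antioxidant response element, bound by Nfe2l1 and Nfe2l2), GAAANNGAAA (an interferon-response pattern), TTCNNNGAA (the STAT dimer pattern, a palindrome that matches both strands at the same place) and CCAAT. Capitals mark the match, and the sequences run 5′ to 3′ on the gene's strand.
Psmb5, chr14:54618023-54618062, minus strand: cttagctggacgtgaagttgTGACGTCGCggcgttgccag
Psmb6, chr11:70525328-70525356, plus strand: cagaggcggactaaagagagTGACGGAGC
Psmb8, chr17:34198089-34198115, plus strand: cctccgctgTTCCCAGAAgatgccccc
Psmb10, chr8:105938445-105938594, minus strand: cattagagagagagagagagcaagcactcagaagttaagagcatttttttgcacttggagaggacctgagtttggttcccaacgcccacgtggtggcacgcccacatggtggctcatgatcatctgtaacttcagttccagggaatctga

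The constitutive subunits Psmb5 and Psmb6 held TGACNNNGC, Psmb8 held TTCNNNGAA in a stretch that is also annotated as part of a first exon, and the Psmb10 window held none of the 4 patterns. The Psmb9 window held CCAAT near the start and is not printed because it lies in an annotated first exon, and Psmb7 had no matched entry. Over the 45 windows, TGACNNNGC was present in 5 windows (11.1%), against 10.6% of the 20150 windows of protein-coding genes. GAAANNGAAA was present in 3 (6.67%), against 3.02% of all windows, TTCNNNGAA in 2 (4.44%), against 6.6%, and CCAAT in 15 (33.3%), against 35.0%. The median window of the proteasome genes held 14 CpG dinucleotides, against 10 over all windows, and 57.6% G and C, against 56%. A match of letters is a description and shows no binding.

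The libraries held 35959444 expected counts on annotated genes in animal 2 and 34203629 in animal 1, and 3 counts, the limit that a count of 0 allows, equal 0.0834 and 0.0877 CPM (counts scaled to a fixed library total). The signal recognition particle RNA 7SL took 20.4% of all TPM (a level per transcript length with a fixed total over the library) in animal 2 and 33.1% in animal 1, and the mitochondrial genome took 22.4% and 15.9%, so TPM and counts scaled by TMM (edgeR's trimmed mean of M-values) can move apart. Adrenal cortex markers (Star, Cyp11a1, Cyp21a1, Cyp11b1, Nr5a1) had a summed level of 13546 TPM in animal 2, against 12091 TPM in animal 1, and the chromaffin markers Th, Dbh, Pnmt and Chga one of 924 and 1098 TPM, so both parts of the gland were present in both libraries.

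Proteasome genes were among the well expressed genes of the gland. At least 1 TPM in both libraries was measured for 48 of the 50, against a background of 53.5% of the 22015 nuclear protein-coding genes. Their summed level was 2480 TPM in animal 2 and 2432 TPM in animal 1 (2456 ± 33.8 TPM, SD, n = 2), or 0.696% and 0.766% of what all nuclear protein-coding genes held. The median over the 50 genes was 43.0 TPM, against 10.5 TPM over protein-coding genes detected in both libraries, and 34 of the 50 ranked in the highest 10% of protein-coding genes. Each library was quantified in a first table, from alignments, and a second, from a transcript index, and levels and their order below are those of the first unless the second is named. The 14 constitutive core subunits held 42.8% of the summed TPM in animal 2 and 44.5% in animal 1, and the 17 subunits of the 19S particle 39.4% and 36.8%.

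**Figure D1:**
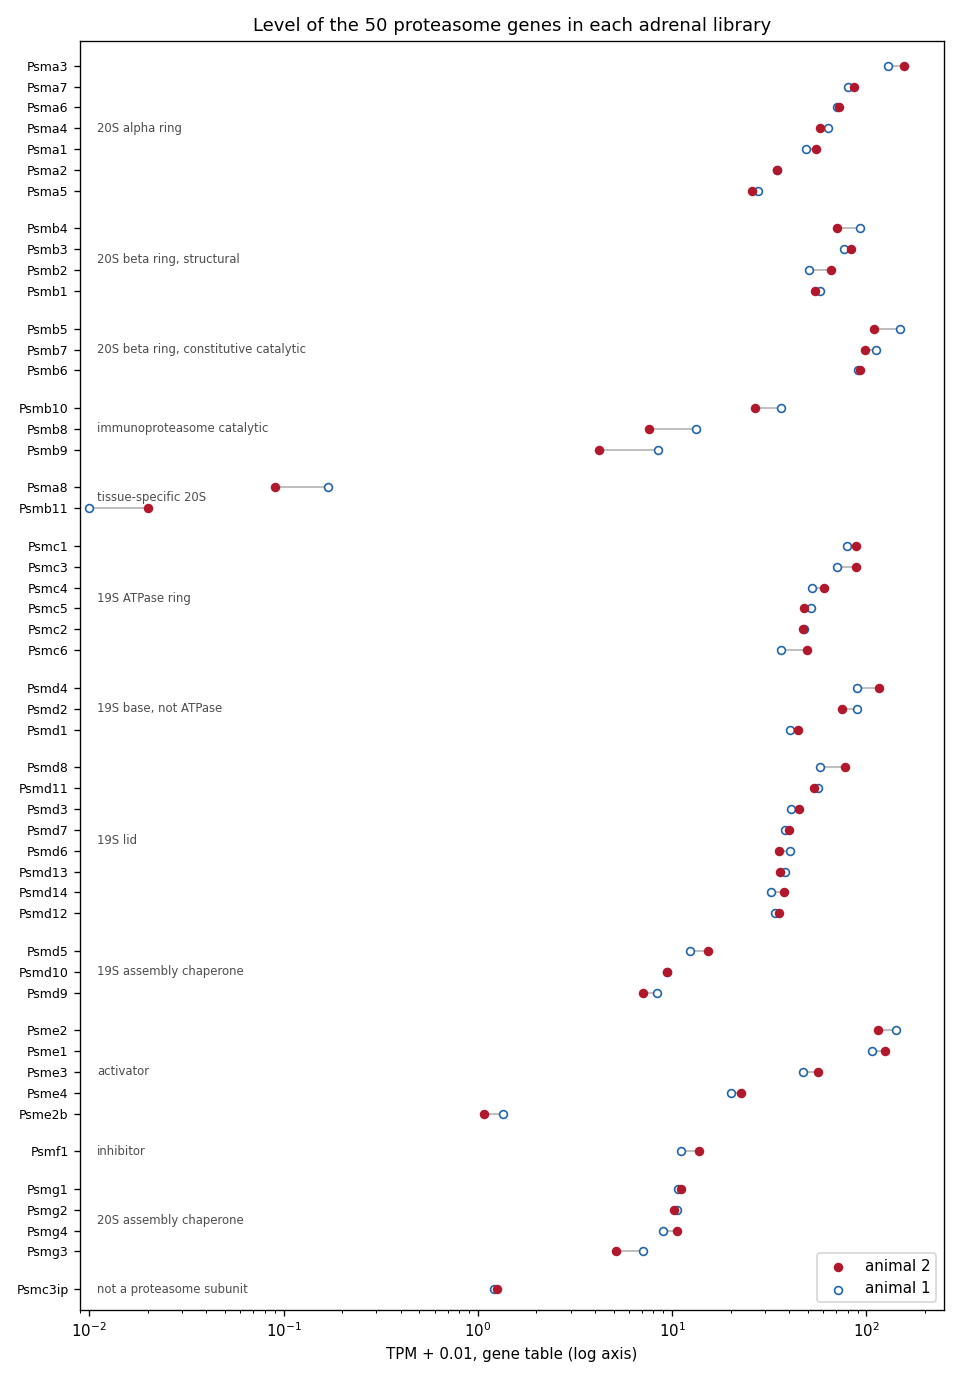
TPM of each of the 50 genes in animal 2 (filled) and animal 1 (open), ordered within role and plotted as TPM + 0.01 on a log axis. The core and 19S subunits lie between 25.8 and 155 TPM in both libraries, and Psma8 and Psmb11 lie lowest.

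The alpha ring, which gates entry to the core, spanned the widest range of levels of any ring. By mean, Psma3 was the highest of all 50 genes, with 155 TPM in animal 2 and 129 TPM in animal 1. In animal 1, Psmb5 and Psme2 were above it. Psma5 was the lowest alpha subunit, with 25.8 TPM in animal 2 and 27.7 TPM in animal 1. Between them the highest mean was 5.33 times the lowest, although each alpha subunit occupies the same number of places in a core. Part of the Psma3 value rested on a transcript model of 312 bases, Psma3-208, which carried 18.4% of the gene's counts in animal 2 and 11.6% in animal 1 but 47.4% and 35.3% of its TPM, since TPM divides by length. The second table placed 0 TPM on that model, and Psma3 stood at 248 TPM in animal 2 and 264 TPM in animal 1 there. Of that TPM, models typed nonsense_mediated_decay held 68.8% in animal 2 and 83.1% in animal 1. Models typed protein_coding held 25.2% and 11.9%, so the high Psma3 level there rested mostly on other models. Leaving Psma3 aside, the highest alpha mean was 3.11 times the lowest. In the second table the lowest was Psma2 (37.3 TPM by mean) and Psma5 stood at 48.4 TPM. The other 5 alpha subunits, Psma1, Psma2, Psma4, Psma6 and Psma7, lay between 34.6 and 86.1 TPM in animal 2 and between 34.8 and 79.96 TPM in animal 1.

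The 7 constitutive beta subunits were more even. The noncatalytic Psmb1, Psmb2, Psmb3 and Psmb4 lay between 54.0 and 83.0 TPM in animal 2 and between 50.7 and 92.2 TPM in animal 1, with Psmb1 lowest and Psmb4 highest by mean (55.8 and 81.4 TPM); in the second table Psmb2 (92.5 TPM) was lowest. The 3 catalytic subunits lay above nearly all of them. Psmb5, the chymotrypsin-like site, had 110 TPM in animal 2 and 148.9 TPM in animal 1. Psmb7, the trypsin-like site, had 98.2 TPM in animal 2 and 112 TPM in animal 1. Psmb6, the caspase-like site, had 93.2 TPM in animal 2 and 89.9 TPM in animal 1. In animal 1 the Psmb4 value of 92.2 TPM lay above that of Psmb6, and in animal 2 all catalytic values were above the noncatalytic ones. That order did not hold in the second table, where Psmb3 (138 TPM by mean) and Psmb4 (147 TPM) stood above Psmb6 (135 TPM). In animal 2 Psmb5 (110 TPM) also lay below Psmb3 (137 TPM) and Psmb4 (122 TPM) there, while Psmb7 (154 TPM) stayed above them.

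The ATPase ring of the 19S particle unfolds substrates. Its highest member by mean was Psmc1, with 87.8 TPM in animal 2 and 79.7 TPM in animal 1. Psmc6 was the lowest, with 49.4 TPM in animal 2 and 36.4 TPM in animal 1. In the second table the lowest ATPase was Psmc5 (73.3 TPM by mean) and Psmc6 stood at 119 TPM. Psmc3 had 88.3 TPM in animal 2 and 70.3 TPM in animal 1, and the other 3 ATPases, Psmc2, Psmc4 and Psmc5, lay between 47.1 and 60.4 TPM in animal 2 and between 47.6 and 52.6 TPM in animal 1. Of the base subunits that are not ATPases, the ubiquitin receptor Psmd4 was highest by mean, with 116 TPM in animal 2 and 89.1 TPM in animal 1, next to the scaffold subunits Psmd2 (74.6 and 89.3 TPM) and Psmd1 (44.4 and 40.5 TPM). In animal 1 Psmd4 and Psmd2 were nearly level, and in the second table Psmd2 (108 TPM by mean) stood above Psmd4 (100 TPM). Psmd4-207, a processed transcript of 314 bases, held 34.3% of the Psmd4 TPM in animal 2 and 21.1% in animal 1, so a part of the Psmd4 level rested on 8.22% and 4.46% of its counts.

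Within the lid, the highest subunit by mean was Psmd8, with 77.5 TPM in animal 2 and 57.5 TPM in animal 1. All others lay between 35.3 and 53.7 TPM in animal 2 and between 32.4 and 56.6 TPM in animal 1, and Psmd12 had the lowest mean, with 35.3 TPM in animal 2 and 33.8 TPM in animal 1. In the second table Psmd11 (140 TPM by mean) stood above Psmd8 (113 TPM), and Psmd14 (48.4 TPM) was lowest. Psmd14, the lid enzyme that cuts ubiquitin chains from the substrate, had 37.5 TPM in animal 2 and 32.4 TPM in animal 1. Across subunits the coefficient of variation of mean levels was 43.1% in the core and 37.4% in the 19S particle, and the median was 75.4 TPM in the core and 47.3 TPM in the 19S particle.

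Assembly factors stood well below the subunits they assemble. The core chaperones Psmg1, Psmg2 and Psmg4 had 11.1, 10.2 and 10.6 TPM in animal 2 and 10.7, 10.6 and 8.95 TPM in animal 1. Psmg3, which pairs with Psmg4 under the alpha ring, had 5.13 TPM in animal 2 and 7.04 TPM in animal 1. Base chaperones were in the same range, with Psmd5 highest (15.4 TPM in animal 2 and 12.3 TPM in animal 1), Psmd10 at 9.40 and 9.44 TPM, and Psmd9 lowest (7.10 and 8.34 TPM). The maturation factor Pomp, which is not named Psm, had 69.1 TPM in animal 2 and 78.4 TPM in animal 1 and so stood near the core subunits. Of the 19S subunits with other names, the ubiquitin receptor Adrm1 had 63.5 TPM in animal 2 and 52.7 TPM in animal 1, and the small subunit Sem1 had 19.6 and 22.6 TPM. Their log2 ratios of scaled counts were 0.11, -0.29 and -0.29 for Adrm1, Sem1 and Pomp.

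Activators open the core without ATP. Psme1, which forms a ring with Psme2 that interferon induces, had 125 TPM in animal 2 and 107 TPM in animal 1. Psme2 had 115 TPM in animal 2 and 142 TPM in animal 1. By gene TPM over all transcript models, both therefore stood at the level of the most abundant core subunits. They also stood far above the interferon-inducible catalytic subunits described next. The nuclear activator Psme3 had 56.0 TPM in animal 2 and 47.0 TPM in animal 1, and Psme4, an activator of a different fold, had 22.5 and 19.97 TPM. Psmf1, an inhibitor of the core, had 13.8 TPM in animal 2 and 11.1 TPM in animal 1. Psme2b, a near copy of Psme2, had 1.06 TPM in animal 2 and 1.34 TPM in animal 1, and its estimate is uncertain because it shares reads with Psme2 and overlaps the gene Gm12185 on the same strand. Models typed retained_intron held 57.7% of the Psme2 TPM in animal 2 and 50.1% in animal 1, and protein_coding models 42.3% and 49.9%. Of the retained_intron models, Psme2-203, of 185 bases, held 27.9% and 36.3% of the TPM from 4.97% and 6.72% of the counts. Psme2-207, of 490 bases, held 28.1% and 10.8% of the TPM. Psme1-209, a nonsense_mediated_decay model of 439 bases, held 30.1% of the Psme1 TPM in animal 2 and 18.4% in animal 1.

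The immunoproteasome catalytic subunits were measured in both libraries at a small fraction of the subunits they replace. Psmb8, which replaces Psmb5, had 7.57 TPM in animal 2 and 13.3 TPM in animal 1, which was 6.89% and 8.90% of Psmb5. Psmb9, which replaces Psmb6, had 4.20 TPM in animal 2 and 8.46 TPM in animal 1, which was 4.51% and 9.41% of Psmb6. Psmb10, which replaces Psmb7, had 26.7 TPM in animal 2 and 36.1 TPM in animal 1, which was 27.2% and 32.1% of Psmb7. In all 3 pairs the immunoproteasome subunit was the lower and its percentage was smaller in animal 2. The summed immunoproteasome level was 12.8% of the constitutive one in animal 2 and 16.5% in animal 1, a mean log2 ratio of -2.79 ± 0.26 (SD, n = 2), or 6.89-fold lower.

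The size of that gap depended on the unit and on which transcripts were counted. By expected counts without length, Psmb10 was 16.8% of Psmb7 in animal 2 and 20.8% in animal 1, a mean log2 ratio of -2.42, against -1.76 by TPM. With transcripts typed protein_coding only, an alternative added after the data were seen, Psmb8 was 4.03% of Psmb5 in animal 2 and 4.49% in animal 1, Psmb9 was 4.44% of Psmb6 in animal 2 and 8.33% in animal 1, and Psmb10 was 9.27% of Psmb7 in animal 2 and 11.8% in animal 1. The summed log2 ratio was then -3.88. The change was largest for Psmb10, where Psmb10-203, a processed transcript of 426 bases, carried 49.3% of the TPM in animal 2 and 46.1% in animal 1. In the second quantification the summed log2 ratio was -2.52, and Psmb10 was 33.0% of Psmb7 in animal 2 and 31.5% in animal 1, so that for this pair the order of the animals turned.

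**Figure D2:**
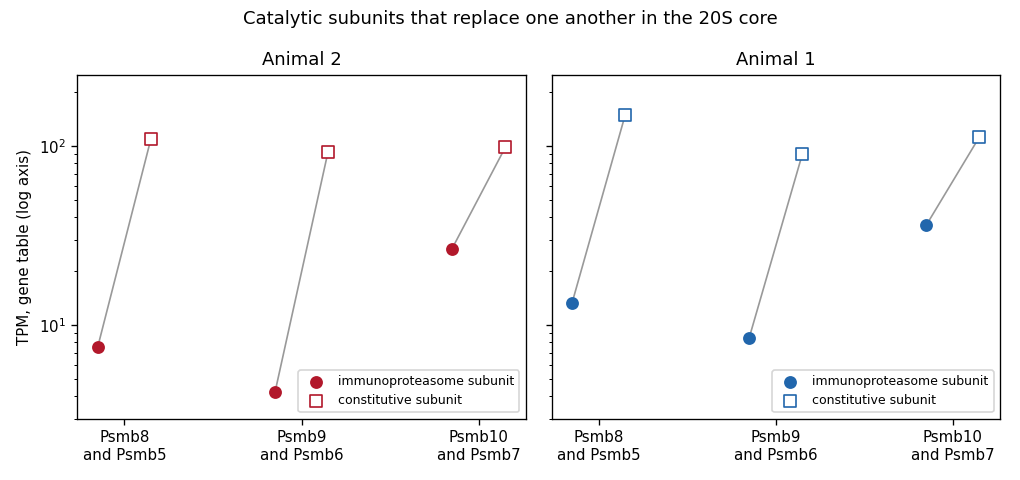
TPM (log axis) of each immunoproteasome subunit (filled circle) and the constitutive subunit it replaces (open square) in animal 2 (left panel) and animal 1 (right panel). Psmb8, Psmb9 and Psmb10 lie below their partners in both animals, and the gap is smallest for Psmb10 and Psmb7.

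The core subunits tied to other tissues were at or near the limit of detection. Psmb11, the catalytic subunit of cortical thymic epithelium, had 1 count in animal 2 and 0 in animal 1, below the limit of 3 counts, but the second quantification gave it 30.7 and 18.01 counts (0.277 and 0.185 TPM), so its level near 0 depended on the table. Psma8, the alpha subunit of male germ cells, had 4 counts (0.08 TPM) in animal 2 and 6 counts (0.16 TPM) in animal 1. Of the germ cell markers, Tnp1 and Prm1 were at 0 counts in both libraries, Ddx4 had 22 and 20 counts and Dazl 2 and 5. Of the thymic epithelium markers, Foxn1 was at 0.10 TPM in animal 2 and 0.06 TPM in animal 1, Prss16 at 0.21 and 0.18 TPM and Ccl25 at 5.55 and 5.19 TPM. Psmc3ip, the recombination protein, had 1.24 TPM in animal 2 and 1.2 TPM in animal 1. Of that TPM, retained_intron models held 74.2% in animal 2 and 86.8% in animal 1. Its protein_coding model held 10.5% and 13.2%, so Psmc3ip reached 1 TPM only with other models included.

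Between the animals, the immunoproteasome catalytic subunits differed most, and all 3 were lower in animal 2. Psmb9 had 119 counts in animal 2, against 234 in animal 1, giving -0.99 as the log2 ratio of TMM-scaled counts (95% counting interval -1.32 to -0.67), or 1.98-fold lower in animal 2. Psmb8 had 229 counts in animal 2, against 444 in animal 1, and its log2 ratio was -0.97 (-1.21 to -0.74). Psmb10 had 583 counts in animal 2, against 872 in animal 1, and its log2 ratio was -0.60 (-0.75 to -0.44). Each interval leaves out equality, and under total-count, DESeq2, ERCC and TPM scaling and in the second quantification all 3 stayed lower in animal 2, by 1.72-fold to 2.06-fold for Psmb9, 1.70-fold to 2.06-fold for Psmb8 and 1.31-fold to 1.57-fold for Psmb10. On counts of protein_coding transcripts only, added after the data were seen, the log2 ratios were -0.67, -0.71 and -0.64 for Psmb9, Psmb8 and Psmb10. With 1 library an animal, the spread between libraries of the same animal is unknown.

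Over the 46 genes averaging at least 100 counts, 7 were over 20% lower in animal 2 (15.2%), against a background of 12.4% of the 12171 genes tested, and 0 were over 25% higher, against 9.24%. These limits are the same fold in either direction, 0.32 on the log2 scale. The share that was lower was therefore near the background, and without the 3 immunoproteasome subunits it was 4 of 43. The other 4 were the core chaperone Psmg3, the catalytic Psmb5, the noncatalytic Psmb4 and the activator Psme2. Psmg3 had 144 counts in animal 2 and 211 in animal 1 (log2 ratio -0.57). Psmb5 had 2887 counts in animal 2 and 4118 in animal 1 (log2 ratio -0.53). Psmb4 had 2157 and 3005 counts (log2 ratio -0.49), and Psme2 had 1833 and 2309 counts (log2 ratio -0.35). Psmb5 was thus lower in animal 2 beside its replacement Psmb8, but by less, so the ratio of Psmb8 to Psmb5 was also lower in animal 2. All 7 were lower in animal 2 by TPM as well. Total-count, DESeq2 and ERCC scaling shift the ratio of every gene alike, by less than the limit of 0.32. They therefore could not change the direction of genes picked past that limit.

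The 5 genes at the other end were Psmd8 (3188 counts in animal 2 and 2525 in animal 1, log2 ratio 0.32, just under 25% higher), Psmb2 (1638 and 1343 counts, 0.27), Psmg4 (151 and 133 counts, 0.17), Psme3 (3603 and 3197 counts, 0.16) and Psmd4 (3446 and 3165 counts, 0.11). For Psmg4 the interval of -0.18 to 0.52 includes equality, and the ratios of Psmg4 and Psmd4 in the second quantification were below 0 (-0.06 and -0.03). The counting interval left out equality with a lower value in animal 2 for 20 of the 46 genes (43.5%), against a background of 28.1%, and with a higher value for 4 (8.70%), against 26.3%. These shares are by TMM scaling only. A counting interval narrows as counts rise, and the background genes were not matched to the proteasome genes for counts.

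Most proteasome genes varied little between the animals. The median absolute log2 ratio was 0.13 over the 46 genes, against 0.16 over protein-coding genes with a mean of at least 100 counts. It was 0.15 over the 14 core subunits and 0.11 over the 17 subunits of the 19S particle. These 31 subunits held 971 to 7488 counts a library, and the protein-coding genes were not matched to them for counts. The part of count depth in this contrast was not tested. Below 0 were 33 of the 46 log2 ratios, against a background of 52.5%, and 35 of the 48 with a mean of at least 10 counts, against 52.2%. Over those 48 the median was -0.09, against -0.02 over all genes. That sign depended on the scaling, since ERCC and TPM scaling moved the median of all genes to 0.19 and 0.11 and that of the proteasome genes to 0.11 and 0.05. Relative to all genes the median of the proteasome genes was -0.07 with ERCC scaling and -0.06 with TPM.

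**Figure D3:**
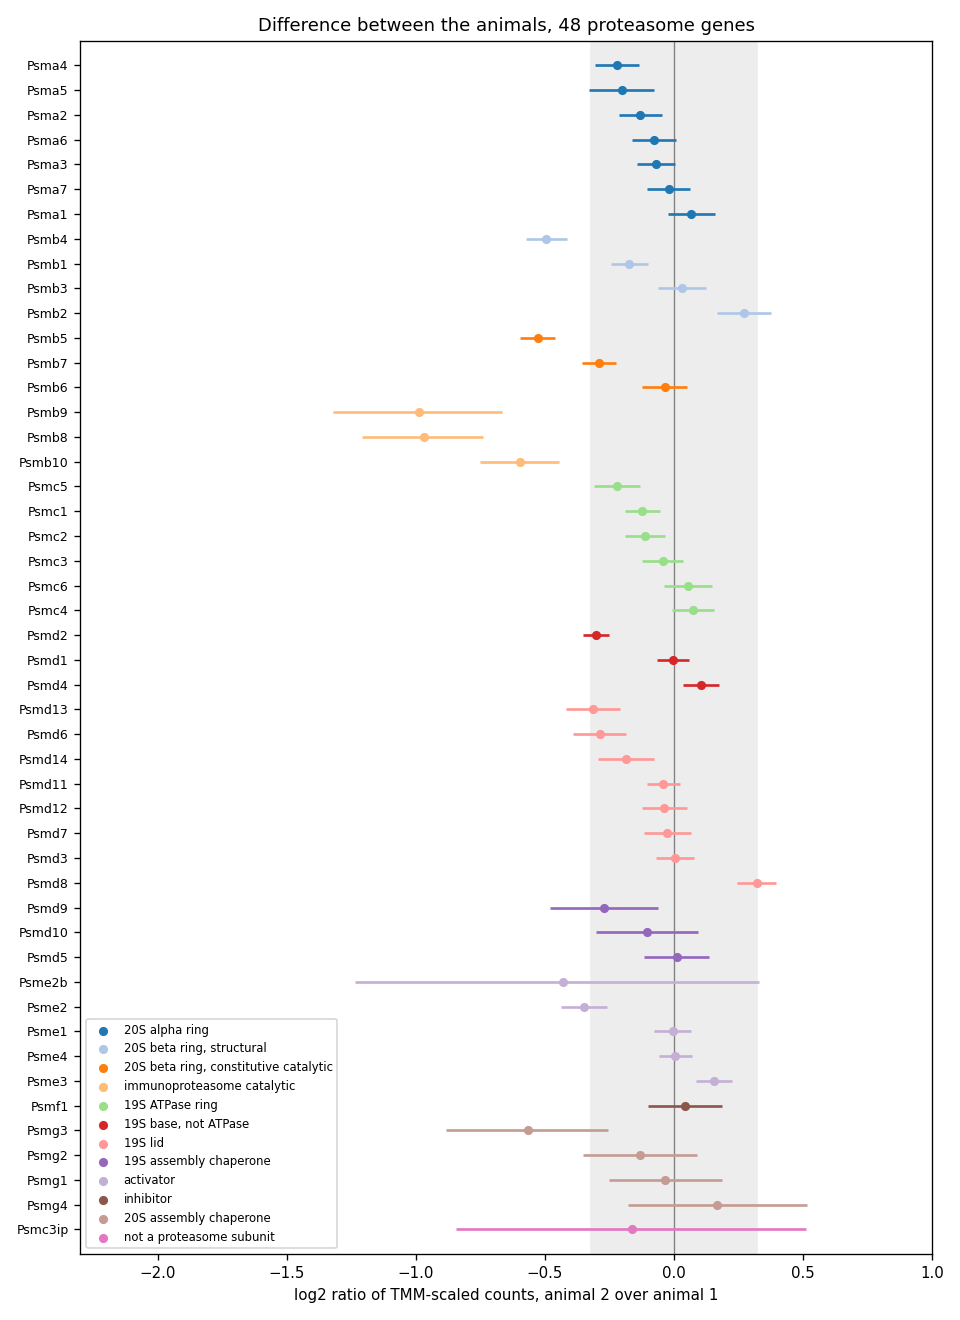
Log2 ratio of TMM-scaled counts, animal 2 over animal 1, with 95% counting intervals, for the 48 genes with a mean of at least 10 counts, coloured by role (grey band, within 0.32). Psmb9, Psmb8 and Psmb10 lie farthest to the left, and nearly all core and 19S subunits lie inside the band, with Psmb4 and Psmb5 outside it.

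Most genes of antigen processing and the interferon response were lower in animal 2 too. The list was chosen with earlier results of these data known, so its contrast with all genes is a description only. Of 13 in the list, 12 were lower in animal 2, against 52.5% of all genes, and 7 were over 20% lower, against 12.4%. The median log2 ratio was -0.34, against the all-gene median of -0.02. With ERCC scaling 9 of the 13 were lower and with TPM 7 of the 13, so part of this count depended on the scaling. Irf7, an interferon-induced transcription factor, had 235 counts in animal 2 and 474 in animal 1 (log2 ratio -1.03). The peptide transporter genes Tap1 and Tap2 had log2 ratios of -0.62 and -0.65, the class I heavy chains H2-D1 and H2-K1 -0.59 and -0.41, and the interferon signalling factors Irf9 and Stat2 -0.47 and -0.34. The class I light chain B2m went the other way, with 10515 counts in animal 2 and 8783 in animal 1 (log2 ratio 0.24), and Nlrc5, the class I transactivator, was the lowest of the list by level, with 2.74 TPM in animal 2 and 1.98 TPM in animal 1. By TPM H2-K1 was higher in animal 2 (232 TPM, against 200 TPM in animal 1), while H2-D1 was lower (59.8 and 83.7 TPM). H2-K1 and H2-D1 belong to a family of near-identical genes, so their split of reads is uncertain.

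Part of these genes are neighbours. On mm10, Psmb9 (chr17:34181987-34187764, minus strand), Tap1, Psmb8 (chr17:34197721-34201454, plus strand) and Tap2 (chr17:34203527-34216321, plus strand) follow each other, and Psmb9 and Tap1 lie head to head with gene models that overlap by 212 bases at their starts. All 4 were over 20% lower in animal 2. Psme1, Psme2 and Irf9 also follow each other on chromosome 14, where Psme2 and Irf9 were over 20% lower in animal 2 while Psme1 had a log2 ratio of -0.0050. Psmb10 and the lid subunit Psmd7 are the 2 proteasome genes on chromosome 8, and chromosome 11 holds the most proteasome genes, 10 of 50.

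Markers of other cell types were read beside these differences. The 8 macrophage markers held 227 TPM in sum in animal 2, against 235 TPM in animal 1, and all 8 were at 1 TPM or more in both. Of these, 6 were lower in animal 2, including Adgre1 (1.26-fold lower), C1qa and C1qb, and Cd68 was 1.28-fold higher, while with ERCC scaling 4 were lower and 4 higher. The highest macrophage marker was Cd74 (96.3 TPM in animal 2 and 99.6 TPM in animal 1) and the lowest was Ptprc (2.15 and 1.83 TPM). The part of macrophages in the lower immunoproteasome levels was not tested. The 8 lymphocyte markers were near 0, with a sum of 0.94 TPM in animal 2 and 1.11 TPM in animal 1, and all 4 chromaffin markers were lower in animal 2, with Pnmt 1.49-fold and Chga 1.26-fold lower. In whole tissue, fewer cells of a type and less RNA per cell cannot be told apart.

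**Figure D4:**
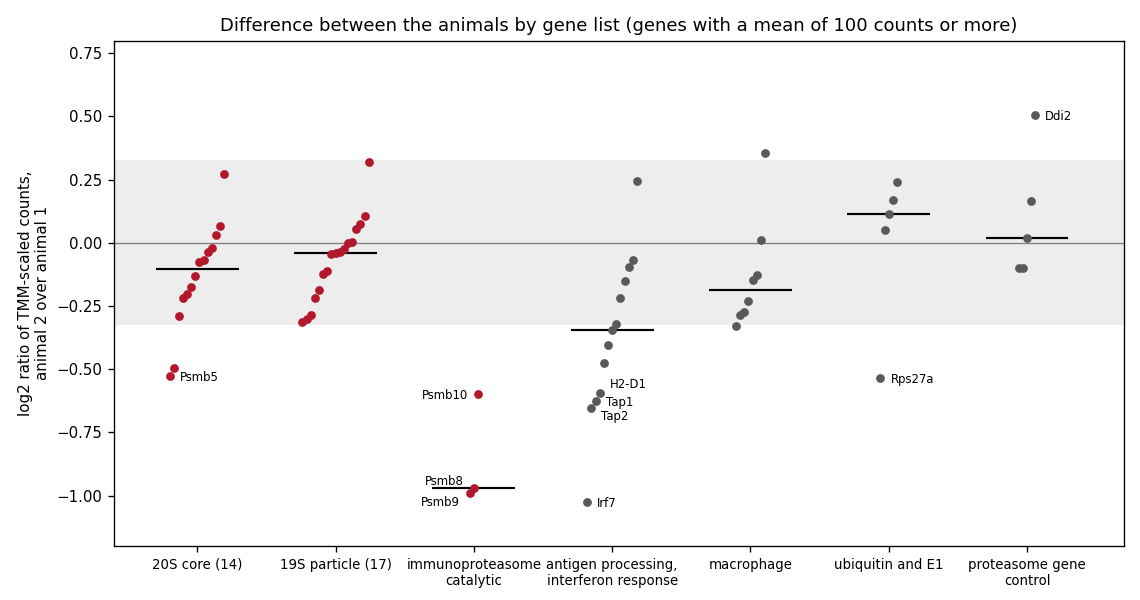
Log2 ratio of TMM-scaled counts, animal 2 over animal 1, of each gene with a mean of at least 100 counts (points) and the median (line), for proteasome genes (red) and other lists (grey), with the band within 0.32 shaded. The immunoproteasome genes and the antigen processing list lie lowest, and the medians of the 20S core and the 19S particle lie within the band.

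Genes that act around the proteasome mostly matched between the animals. Of 13 proteasome-bound deubiquitinases, ligases and shuttle factors, 0 were over 25% higher or over 20% lower in animal 2, from Ecpas, a proteasome adaptor and scaffold (67.2 TPM in animal 2 and 54.4 TPM in animal 1), to Fbxo7 (7.43 and 7.90 TPM). Nfe2l1, the transcription factor that induces proteasome genes when proteasome activity is short, had 284 TPM in animal 2 and 209 TPM in animal 1, but its log2 ratio of scaled counts was 0.02. Ddi2, the protease that activates Nfe2l1, was 1.42-fold higher in animal 2, with 5441 counts in animal 2 and 3793 in animal 1, and Ngly1, also needed for that activation, had a log2 ratio of -0.10 and the lowest level of these factors (19.1 and 15.7 TPM). Rps27a, a ubiquitin and ribosomal protein fusion gene, was 1.45-fold lower in animal 2, with 3746 counts in animal 2 and 5368 in animal 1. The ubiquitin-activating enzyme Uba6 had a low level, with 8.12 TPM in animal 2 and 6.12 TPM in animal 1.

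All 50 genes together have 278 annotated transcripts. For the 46 genes averaging at least 100 counts, protein_coding transcripts held 92.1% of counts in animal 2 and 93.4% in animal 1. On retained_intron transcripts lay 4.05% and 4.09% of the counts of these 46 genes. Of the 41 genes at 10 TPM or more, 26 had at least 90% of their counts on the leading transcript and 4 had under 50%. The smallest leading shares were those of Psme2 (45.97% in animal 2 and 30.7% in animal 1), Psmd13 (38.2% and 42.8%), Psma3 (48.1% and 35.7%), Psmf1 (50.7% and 43.5%) and Psmb8 (48.01% and 54.5%). Psmd13, a lid subunit, also overlaps the processed pseudogene Gm15542 on the same strand, which was given 551 counts in animal 2 and 619 in animal 1.

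Psmb8 was the exception among the 46 genes with a mean of at least 100 counts, in that its leading transcript was not protein_coding. Its leading model was Psmb8-205, a retained_intron transcript, with 110 counts in animal 2 and 242 in animal 1. Psmb8-203, the leading protein_coding model, had 109 counts in animal 2 and 170 in animal 1, and Psmb8-201 had 0 and 5.88 counts. The second quantification placed 8.09% of the Psmb8 counts in animal 2 and 7.60% in animal 1 on Psmb8-205 and 63.7% and 65.1% on Psmb8-201. The 2 quantifications thus gave different main transcripts for Psmb8, and over the 46 genes the transcript with most counts was the same in both for 40.

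**Figure D5:**
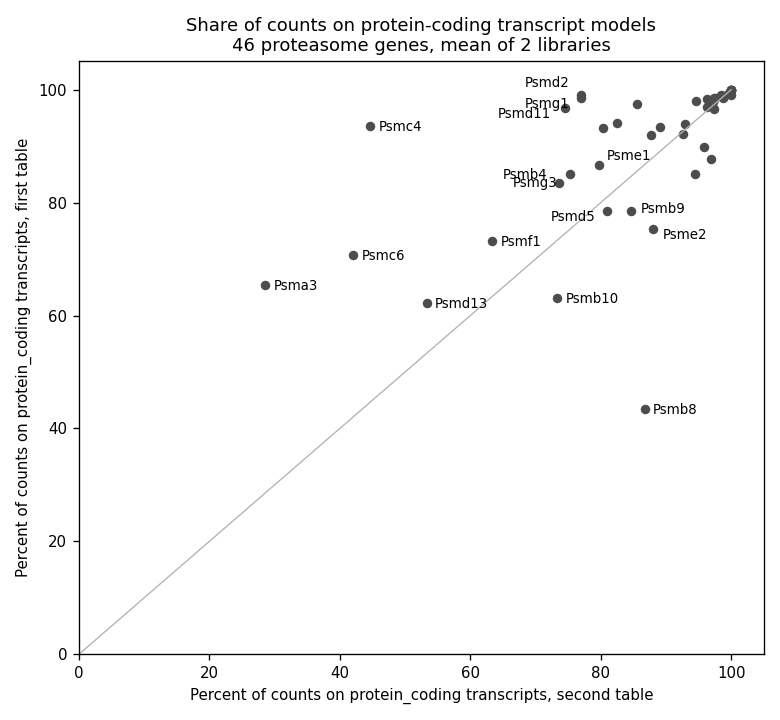
Percent of each gene's counts on protein_coding transcripts in the first table (y axis) and the second table (x axis), mean of 2 libraries, for 46 genes, with the line of equality. Psmb8 lies far below the line and Psmc4, Psma3 and Psmc6 far above it.

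Gene levels in the second quantification were mostly higher, with a median log2 difference of 0.75 over the 41 proteasome genes at 10 TPM or more and 0.72 over protein-coding genes at that level. The largest differences were those of Psmc6 (1.47), Psmd11 (1.34), Psme1 (1.34), Psmd5 (1.29) and Psma1 (1.11), and the smallest was that of Psmd4 (-0.03). Psmc6, an ATPase, had 49.4 TPM in animal 2 and 36.4 TPM in animal 1 in the first table, and 121 and 117 TPM in the second. Psme1 had 326 TPM in animal 2 and 260 TPM in animal 1 in the second table and was the highest proteasome gene there by its mean. The nonsense_mediated_decay model Psme1-209, of 439 bases, held 60.6% of that TPM in animal 2 and 43.6% in animal 1. It held 23.7% and 12.4% of the Psme1 counts there. The log2 ratio of the animals by TPM exceeded that by scaled counts by a median of 0.10 over the 46 genes, and by more in some. The log2 ratio of Psmc6 was 0.44 by TPM and 0.06 by scaled counts, that of Psmc3 was 0.33 and -0.04, and that of Psma3 was 0.27 and -0.07. For Psmc3 the processed transcript Psmc3-205, of 429 bases, held 39.1% of TPM in animal 2 and 14.04% in animal 1. With that general offset, 12 of 46 genes were lower in animal 2 by scaled counts and higher by TPM.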

How the data were processed

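Per the labels, total RNA of 2 adrenal glands was sequenced from a directional library kit. Per the deposited text, mm10 and GENCODE M21 were used, with 1 gene table and 2 transcript tables a library. No aligner or program version is given in the sources used here. Deposited were an expected count and a TPM per gene and transcript, each transcript's percent of its gene and, as another value, the posterior standard deviation of a count, which was 0 in both libraries for 36 of the 50 genes. The first tables come from transcriptome alignments and the second from a transcript index.

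Expected counts were rounded for TMM scaling (edgeR 4.0.16, R 4.3.3), size factors (DESeq2 1.42.0) and the counting intervals, and otherwise used as deposited. Ratios are animal 2 over animal 1 with a prior of 0.5 counts and exact Clopper-Pearson intervals at 95%. Spike-in and unnamed rows were left out of library sizes. The ratio step was tested on simulated data. The 50 genes and all lists were chosen with earlier results of these data known. Named are the catalytic, activator, inhibitor, chaperone and tissue-specific genes, the highest and lowest of each class, and the 5 most extreme by ratio, by difference between tables and by leading transcript share; of other lists, the highest, the lowest and those over 25% higher or over 20% lower in animal 2. Any other gene or transcript was chosen after its values were seen. Paaf1 was not analysed here. A further gene is not reported here.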

Additional observations from a re-analysis of the deposited data

How the results depend on the processing

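Of 240 combinations of a gene's animal ratio and a scaling, 81 left its counting interval, and of the 7 genes over 20% lower in animal 2 none changed direction. The summed level was 2456 TPM, 4122 in the second table and 7310 rescaled to protein-coding genes, and 2432 to 2480 with either replicate left out. The immunoproteasome log2 ratio of -2.79 was -2.52 in the second table, -3.88 on protein_coding transcripts (added after the data were seen), and -2.97 to -2.60 leaving out a replicate. The median animal ratio of -0.09 reversed with ERCC (0.11) and TPM (0.049) scaling. The number higher in animal 2, 13 of 48, was 7 with total counts, 33 with ERCC and 26 with TPM. The 7 genes over 20% lower were 12 with total counts, 11 in the second table, 3 at 1.5-fold and 0 at 2-fold. The 0 over 25% higher were 1 with DESeq2 size factors, 4 with ERCC, 6 with TPM, 1 in the second table and 1 with no filter on low counts. The 4 genes with a leading transcript under 50% were 10 by percent of TPM and 12 in the second table, and 4 leaving out either replicate. The coefficient of variation was 43.3 to 45.2% in the core and 35.7 to 40.7% in the 19S particle, and 48 genes were detected, leaving out a replicate. The causes of these changes were not tested.

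No paired analysis was possible because the labels give 1 group only. Depth limits the genes under 10 counts, Psma8 and Psmb11, and with 1 library an animal the error between libraries is unknown.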
